A study of Mus musculus with 9 samples.

Results

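The genes described are 10 components of the route by which cells prepare peptides for major histocompatibility complex (MHC) class I molecules, found by symbol among the 45904 identifiers of the expression table. They are the transporter subunits Tap1 and Tap2, the loading chaperones Tapbp and Calr, the trimming enzyme Erap1, the immunoproteasome subunits Psmb8, Psmb9 and Psmb10, and the proteasome activator subunits Psme1 and Psme2. All 10 were matched through their Ensembl identifiers, and all 10 passed the filter on low values, a mean of at least 0.2 FPKM (sequenced fragments per kilobase of a gene's length, adjusted for library depth).

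RNA came from whole dorsal root ganglia, which hold the cell bodies of sensory neurons with their glia, of the sciatic nerve of C57BL/6 mice. The young mice had an age of 8 to 10 weeks, the aged ones of 20 to 22 months. The 3 groups were young sham, aged sham and aged injury, with 3 libraries each, all collected 24 h after surgery, either a sham operation or an injury of that nerve, and each library pooled the ganglia of 2 mice. No group carried an engineered allele by its labels, and injured young ganglia were not analysed here.

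Between 20237 and 21100 identifiers were above 0 per library, and the reads recovered from the steps of the FPKM values, a measure of relative depth, summed to between 10210252 and 14973728 per library. All 10 markers of sensory neurons were above 0 in every library, with summed levels of 3217 to 4056 FPKM. The groups differed in sex as well as in age. Y-linked genes reached 67.9% of the young mean in aged sham replicate 1 and at most 0.0695% in the other 5 aged libraries, while Xist, expressed from the inactive X chromosome of females, had levels up to 0.02 FPKM in the young pools, 1.75 in aged sham replicate 1 and 9.77 to 13.05 in the rest. Age and sex therefore cannot be told apart in any comparison of aged with young ganglia below. Through aged sham replicate 1, aged sham and aged injury also differed in sex in part. Fits below with the Y-linked level as a covariate rest on that library and cannot separate age from sex.

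Proteasomes cut cytosolic proteins into peptides, and interferon gamma makes cells replace the constitutive catalytic subunits Psmb5, Psmb6 and Psmb7 by Psmb8, Psmb9 and Psmb10, which favours peptide ends that class I molecules bind. The PA28 activator, a ring of Psme1 and Psme2, opens the proteasome core. The Tap1-Tap2 transporter moves the peptides into the endoplasmic reticulum, where Erap1 trims them, tapasin (Tapbp) bridges the transporter to the empty class I molecule, and calreticulin (Calr) holds that molecule through its sugar. Neurons are known for low class I levels at rest, and leukocytes for high levels.

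Of the 10 genes, 4 lie side by side on chromosome 17 (GRCm38, GENCODE M21). Psmb9 (34181987 to 34187764, minus strand), Tap1 (34187553 to 34197225), Psmb8 (34197721 to 34201454) and Tap2 (34203527 to 34216321, all plus strand) span 34335 bases. Tapbp lies 252694 bases away (33915899 to 33929292, plus strand). Psme1 (chromosome 14, 55578123 to 55581529, plus strand) and Psme2 (55587441 to 55591113, minus strand) are 5911 bases apart. Erap1 is on chromosome 13 (74639568 to 74693201, plus strand), and Psmb10 (105935735 to 105938444) and Calr (84841850 to 84846934) are on the minus strand of chromosome 8.

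**Figure D1:**
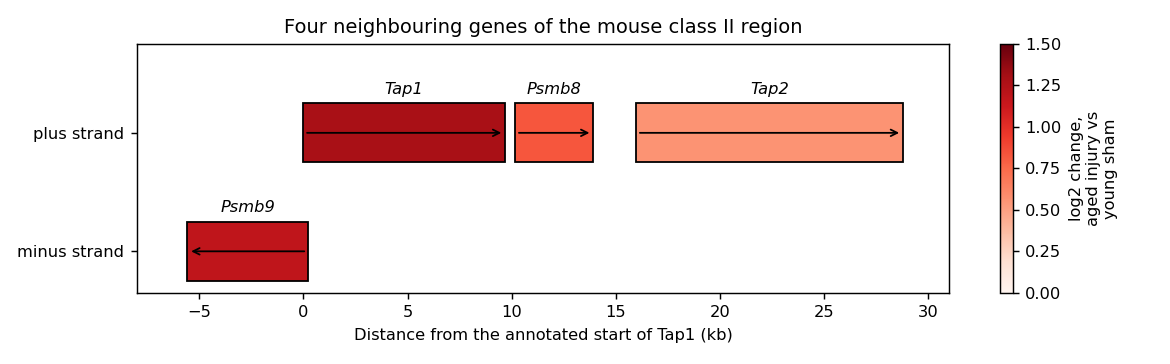
Map of Psmb9, Tap1, Psmb8 and Tap2, drawn to scale by distance in kilobases, with arrows for the strand. Psmb9 and Tap1 start head to head and share 212 bases, and all 4 genes lie within 34335 bases.

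The starts of Tap1, Psmb9, Psmb8 and Psme1 are shown as examples of genes called higher in aged injury than in young sham. Those of Erap1 and Calr are examples of genes not called. The windows of Tapbp, which was also called, and of Psmb10 and Psme2, which were not, are not printed. Psmb9 and Tap1 run in opposite directions from 1 shared stretch. The RefSeq table (GRCm38.p6) gave a window from 250 bases before to 50 bases after the start for 9 of the 10 genes. The windows of Tap1 (chr17:34187306-34187605) and Psmb9 share 275 bases (34187306 to 34187580), which were identical when read on opposite strands. The window of Psmb8 (chr17:34197945-34198244, plus strand) lies in the same cluster, and those of Psme1 (chr14:55578244-55578543, plus strand) and Erap1 (chr13:74639603-74639902, plus strand) hold the interferon response spelling described next. That of Calr is chr8:84846882-84847181 (minus strand). Capitals mark the matches of motifs, and each sequence reads from 5′ to 3′ on the strand of its gene.

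Tap1, shared with Psmb9: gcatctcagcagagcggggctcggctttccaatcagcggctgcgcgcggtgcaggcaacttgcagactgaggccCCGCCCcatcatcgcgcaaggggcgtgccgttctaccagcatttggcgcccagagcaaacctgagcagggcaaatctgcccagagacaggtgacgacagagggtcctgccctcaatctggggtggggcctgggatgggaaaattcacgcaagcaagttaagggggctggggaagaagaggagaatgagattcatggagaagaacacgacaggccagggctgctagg
Psmb8: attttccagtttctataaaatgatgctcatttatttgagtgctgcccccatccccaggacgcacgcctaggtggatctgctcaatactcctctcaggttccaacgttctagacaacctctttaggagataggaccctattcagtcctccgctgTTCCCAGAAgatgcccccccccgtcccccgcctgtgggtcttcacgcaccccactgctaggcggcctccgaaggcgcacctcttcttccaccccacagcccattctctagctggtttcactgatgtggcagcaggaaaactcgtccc
Psme1: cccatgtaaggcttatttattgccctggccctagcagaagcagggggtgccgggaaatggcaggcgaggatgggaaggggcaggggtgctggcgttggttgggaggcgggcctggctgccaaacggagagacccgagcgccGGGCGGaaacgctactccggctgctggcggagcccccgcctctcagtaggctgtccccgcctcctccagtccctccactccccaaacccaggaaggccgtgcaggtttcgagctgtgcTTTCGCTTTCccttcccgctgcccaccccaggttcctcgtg
Erap1: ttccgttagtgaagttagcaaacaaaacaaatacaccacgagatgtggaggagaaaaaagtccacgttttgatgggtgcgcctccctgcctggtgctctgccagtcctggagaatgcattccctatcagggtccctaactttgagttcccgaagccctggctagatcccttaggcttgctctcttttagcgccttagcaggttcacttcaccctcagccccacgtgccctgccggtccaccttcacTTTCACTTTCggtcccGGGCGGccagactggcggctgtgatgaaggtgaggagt
Calr: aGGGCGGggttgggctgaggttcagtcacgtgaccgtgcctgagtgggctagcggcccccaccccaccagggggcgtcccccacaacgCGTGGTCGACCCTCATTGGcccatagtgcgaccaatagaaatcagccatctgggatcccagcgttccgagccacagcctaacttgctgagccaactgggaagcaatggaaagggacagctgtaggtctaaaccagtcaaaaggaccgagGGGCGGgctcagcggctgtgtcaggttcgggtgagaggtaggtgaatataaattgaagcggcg

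The motifs were searched as letters on both strands. The spelling GAAA, any 2 bases and GAAA, read by interferon regulatory factors, was found in Erap1 (bases -4 to 5 from the start) and Psme1 (9 to 18), and in 3.44% of all 32851 windows. The spelling TTC, any 3 bases and GAA, known as the gamma-activated site, was found in Psmb8 (-97 to -89) and in 8.30% of all windows. It reads the same on both strands, and no window of the 9 genes held the NF-kB spellings GGG, any 2 bases and TTTCC or TTCC, found in 1.63% and 5.82% of all windows. The GC box GGGCGG, found in 35.7% of all windows, was in those of Tap1 (-176 to -171) and Psmb9 (-55 to -50), where it is the same stretch. It was also in those of Psme1 (-109 to -104) and Erap1 (12 to 17). The spelling CCAAT, any 9 bases and CCACG, read by factors of the unfolded protein response, was found in Calr (-162 to -144, on the opposite strand) and in 0.119% of all windows, and Calr also held GC boxes at -249 to -244 and -13 to -8. The window of Psmb10 held none of these spellings, and those of Tapbp and Psme2 held the GC box alone. A match is a description of letters and not of binding.

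Of the immunoproteasome subunits, Psmb8 and Psmb9 rose in aged injury over young sham, and Psmb10 did not pass in any comparison. In aged sham against young sham the differences of Psmb8 and Psmb9 missed the threshold of an adjusted p of 0.05. In whole ganglia, more or fewer cells of a type cannot be told apart from more or less RNA per cell. Psmb8, the inducible counterpart of Psmb5, was at 3.41, 3.41 and 2.32 FPKM in replicates 1 to 3 of young sham, 5.11, 5.602 and 4.51 in those of aged sham, and 4.95, 6.83 and 4.66 in those of aged injury. All aged libraries lay above all young libraries. Aged sham exceeded young sham by 0.73 on the log2 scale (1.66-fold, SE 0.183, limma adjusted p = 0.0548). In aged injury Psmb8 rose 1.77-fold over young sham (limma adjusted p = 0.0208).

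Psmb9, the counterpart of Psmb6, was at 1.12, 1.30 and 0.979 FPKM in replicates 1 to 3 of young sham, 2.27, 3.90 and 2.06 in those of aged sham, and 1.95, 4.13 and 2.39 in those of aged injury. Replicate 2 stood highest in both aged groups, and the lowest aged library lay above the highest young one. The difference was 2.23-fold in aged sham (log2 1.16, SE 0.297, limma adjusted p = 0.0582). In aged injury Psmb9 rose 2.27-fold over young sham (log2 1.18, limma adjusted p = 0.0325). The 212 bases that Psmb9 and Tap1 share make up 5.79% of the exon bases of Psmb9 and 3.87% of those of Tap1.

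Psmb10, the counterpart of Psmb7, was at 21.6, 29.0 and 22.2 FPKM in replicates 1 to 3 of young sham, 30.0, 30.5 and 30.9 in those of aged sham, and 25.4, 28.0 and 29.2 in those of aged injury. Aged sham lay above young sham without overlap (log2 0.34, limma adjusted p = 0.0905), but aged injury overlapped young sham (log2 0.20, limma adjusted p = 0.261). Per length, Psmb10 had the highest level of the 3 inducible subunits.

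The levels of these subunits were small beside those of their constitutive counterparts. Psmb5 was at 91.2 ± 11.04 FPKM in young sham, 103.8 ± 7.61 in aged sham and 86.6 ± 4.31 in aged injury (SD, n = 3 each), and none of the 3 constitutive subunits passed the limma test in any comparison. Per length, Psmb8 was at 3.99%, 3.28% and 2.76% of Psmb5 in young sham, 4.54%, 5.55% and 4.60% in aged sham, and 5.88%, 8.13% and 5.09% in aged injury. The groups of young and aged libraries did not overlap. This percentage differed from young sham by 0.56 on the log2 scale in aged sham and by 0.92 in aged injury, both with an exact permutation p of 0.1 (two-sided), the smallest that 3 against 3 libraries allow.

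Psmb9 was at 1.38%, 1.37% and 1.13% of Psmb6 in young sham, 2.04%, 4.21% and 2.27% in aged sham, and 2.27%, 4.99% and 2.62% in aged injury. The aged sham libraries again all lay above the young ones (2.09-fold, exact permutation p = 0.1). Psmb10 was at 10.8% ± 1.97 of Psmb7 in young sham, 15.6% ± 2.50 in aged sham and 14.1% ± 0.888 in aged injury (SD, n = 3), and here aged sham and young sham overlapped (exact permutation p = 0.2). Aged injury lay above young sham without overlap for Psmb9 (2.40-fold) and Psmb10 (1.32-fold), each with an exact permutation p of 0.1. Psmb7 itself was lower in aged injury than in young sham without overlap (195 ± 14.3 against 224 ± 9.40 FPKM). Aged injury and aged sham overlapped in all 3 ratios, with exact permutation p of 0.2 for Psmb8, 0.6 for Psmb9 and 0.4 for Psmb10.

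**Figure D2:**
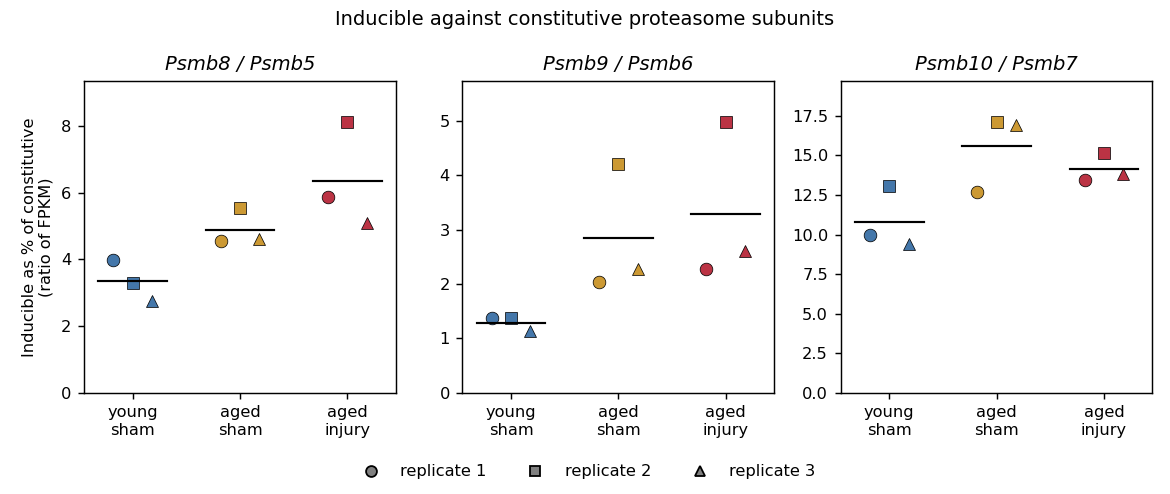
Level of each inducible catalytic subunit as a percent of its constitutive counterpart, from FPKM, by group. Each point is 1 library and each line is the mean of a group (n = 3). The means for Psmb8 are 3.34%, 4.90% and 6.37% in young sham, aged sham and aged injury, those for Psmb9 are 1.29%, 2.84% and 3.29%, and Psmb10 lies between 9.44% and 17.1% in every library.

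The PA28 subunits differed in listed level, and the level of Psme2 is uncertain because of a near-identical copy described below. Psme1 was at 11.2, 11.1 and 10.5 FPKM in replicates 1 to 3 of young sham, 14.2, 14.8 and 13.1 in those of aged sham, and 11.9, 16.6 and 15.2 in those of aged injury. The aged sham libraries all lay above the young ones (1.28-fold, limma adjusted p = 0.0914), and in aged injury Psme1 rose 1.32-fold over young sham (limma adjusted p = 0.0481).

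Psme2 was at 0.688, 0.867 and 1.17 FPKM in replicates 1 to 3 of young sham, 0.925, 1.07 and 1.23 in those of aged sham, and 0.912, 1.53 and 1.09 in those of aged injury. Its groups overlapped, and no comparison passed (limma adjusted p = 0.540 for age, 0.861 for injury and 0.376 for aged injury against young sham). Only 16 to 37 reads were recovered per library. The single-exon copy Psme2b on chromosome 11 (48945354 to 48946190) was listed at 48.9 ± 0.542 FPKM in young sham, 56.4 ± 2.84 in aged sham and 53.3 ± 4.11 in aged injury. Of its 794 aligned transcript bases 789 were identical to those of Psme2, so reads could have been split and both levels are uncertain. Unlike Psme2, the copy had all aged libraries above the young ones, and limma called it in no comparison.

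The transporter subunits were both higher in the aged libraries, Tap1 by more than Tap2 in fold. Tap1 was at 1.52, 1.76 and 1.37 FPKM in replicates 1 to 3 of young sham, 2.26, 5.94 and 3.01 in those of aged sham, and 3.18, 5.69 and 3.35 in those of aged injury. The aged libraries all lay above the young ones, but replicate 2 reached 5.94 FPKM in aged sham and 5.69 FPKM in aged injury, well over the other aged libraries. The difference was 2.15-fold in aged sham (log2 1.10, SE 0.332, limma adjusted p = 0.0832). In aged injury Tap1 rose 2.45-fold over young sham (log2 1.29, limma adjusted p = 0.0352).

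Tap2 was at 2.99, 3.30 and 2.49 FPKM in replicates 1 to 3 of young sham, 3.53, 4.95 and 4.15 in those of aged sham, and 4.14, 4.997 and 3.92 in those of aged injury. Its aged libraries were again above all young ones, with 1.42-fold in aged sham (limma adjusted p = 0.0826) and a rise of 1.47-fold in aged injury over young sham (limma adjusted p = 0.0420). The ratio of the highest to the lowest library was 4.32 for Tap1 and 2.01 for Tap2.

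Among the chaperones and the trimming enzyme, Tapbp rose in aged sham and Calr and Erap1 did not pass the test. Tapbp was at 24.4, 24.8 and 21.7 FPKM in replicates 1 to 3 of young sham, 28.3, 33.5 and 32.3 in those of aged sham, and 29.0, 32.1 and 27.8 in those of aged injury. No aged library overlapped the young ones. Tapbp rose 1.32-fold in aged sham (log2 0.40, SE 0.0855, limma adjusted p = 0.0411) and 1.25-fold in aged injury over young sham (limma adjusted p = 0.0383). Its exons share 149 bases with Zbtb22 and 904 with the antisense gene Gm19412, and the handling of strand is not given in the sources used here.

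Calr was the most highly expressed member, at 97.5, 99.1 and 96.5 FPKM in replicates 1 to 3 of young sham, 102.4, 95.1 and 113.7 in those of aged sham, and 109.7, 116.0 and 111.2 in those of aged injury. The aged injury libraries lay above the young ones, and the difference of 0.20 on the log2 scale did not pass (limma adjusted p = 0.0802). Its range over the 9 libraries was the narrowest of the 10 genes, with a ratio of highest to lowest of 1.22.

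Erap1 was at 5.89, 4.37 and 5.69 FPKM in replicates 1 to 3 of young sham, 4.08, 5.87 and 4.72 in those of aged sham, and 4.64, 6.34 and 4.87 in those of aged injury. The groups overlapped, with a log2 difference of -0.12 in aged sham (limma adjusted p = 0.684). It shares 834 exon bases with Cast, a protein-coding gene on the opposite strand, which reached 70.8 FPKM.

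**Figure D3:**
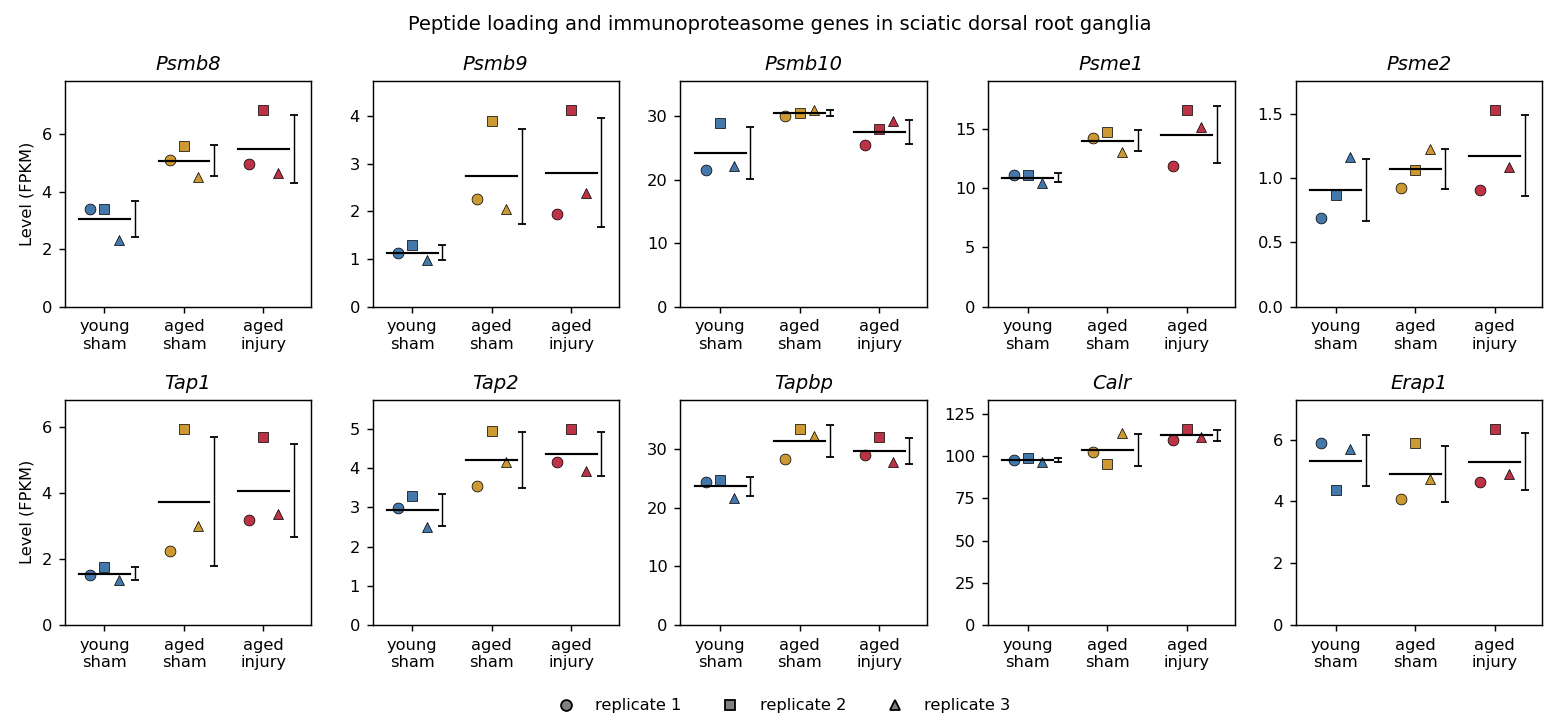
FPKM of the 10 genes in each of the 9 libraries, by group, with mean and SD (n = 3). Tap1 runs from 1.37 to 5.94 FPKM and Psmb9 from 0.979 to 4.13 FPKM, while Calr stays between 95.1 and 116 FPKM.

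Across the 10 genes, aged sham against young sham called 1 higher (Tapbp), beside 2.53% of all 17601 features tested. This comparison, named by age for short, holds age and sex together, without nerve injury. At an unadjusted p under 0.05 were 7 of the 10, all higher, where 15.9% of all features were. The median log2 difference was 0.38 over the 10 genes and 0.05 over all features, and 7 genes had aged libraries all above the young ones, where 17.7% of all features did. With Psmb10 and Psme1, these were Tap1, Tap2, Tapbp, Psmb8 and Psmb9. The call of Tapbp was lost in 7 of the 9 fits that left out 1 library (without young sham replicate 1 or 3, aged sham replicate 2 or 3, or any aged injury library), and with the Y-linked level as a covariate 0 genes were called and the difference of Tapbp was 0.14 (limma adjusted p = 0.737).

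Nerve injury in aged ganglia, compared with aged sham, gave 0 calls among the 10 genes by limma, where 4.11% of all features were called. At an unadjusted p under 0.05 were 0 of the 10, where 19.8% of all features were, and voom on recovered reads called 0, where 5.47% of the features it tested were called. The log2 differences ranged from -0.15 (Psmb10) to 0.19 (Tap1), with a median of 0.07, and the 95% interval of the fold difference was 0.679 to 1.91 for Tap1, 0.802 to 1.42 for Psmb8, 0.640 to 1.62 for Psmb9 and 0.828 to 1.08 for Tapbp. The libraries of the 2 groups did not overlap for Psmb10, which was lower in aged injury, where 13.7% of all features were lower and 11.7% higher without overlap.

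Aged injury against young sham, which combines both differences and shares its libraries with the other 2 comparisons, called 6 genes higher: Tap1, Tap2, Tapbp, Psmb8, Psmb9 and Psme1. Of all features 8.20% were called higher there, 1444 beside 860 lower, which became 1029 and 1670 with equal medians and 1168 and 1241 with quantile normalization. For 7 genes, these 6 and Calr, all aged injury libraries lay above the young ones, where 19.9% of all features did. The number called was 0 without young sham replicate 1, young sham replicate 3 or aged injury replicate 2, 1 without aged injury replicate 3, and 3 without aged sham replicate 3 or aged injury replicate 1. With the Y-linked covariate it was 0, and the median log2 difference of the 10 genes fell from 0.37 to 0.029, with 5 in place of 9 above 0. There Tap1 was at -0.040, Tap2 at -0.017 and Tapbp at -0.019, while Psmb8 was at 0.77, Psmb9 at 0.67 and Psme1 at 0.43. Over all features the calls fell from 2304 to 17 in that fit. The covariate follows age in all libraries but aged sham replicate 1, so the fit cannot separate sex from age for any of these genes.

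**Figure D4:**
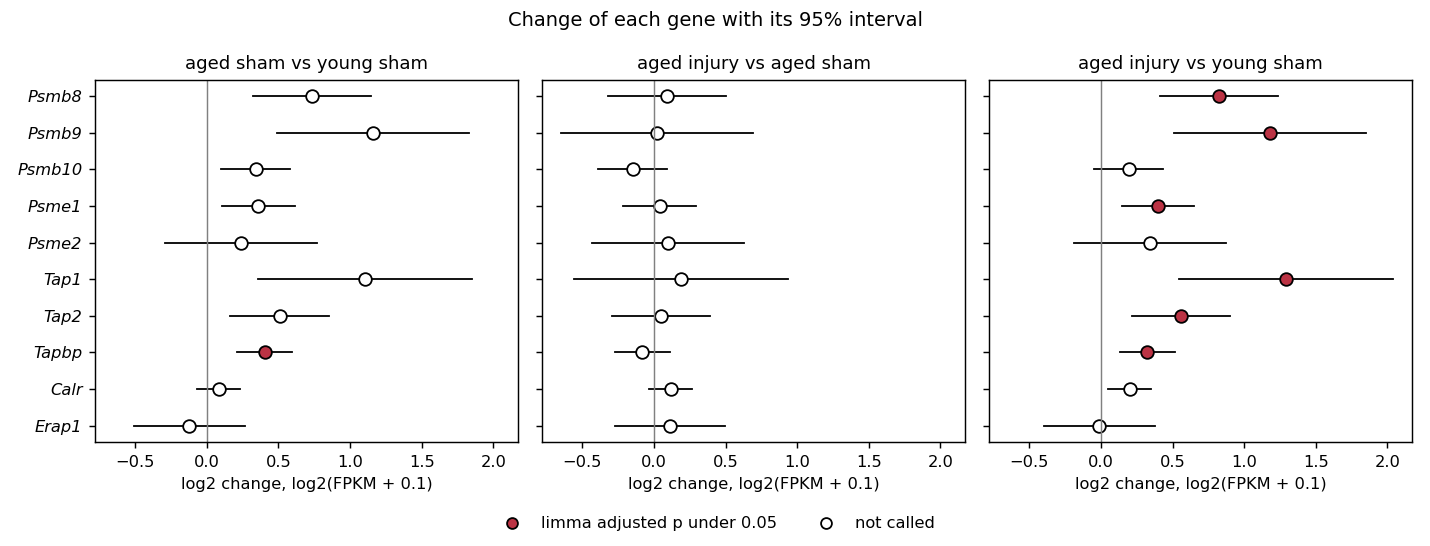
Log2 difference of each of the 10 genes in the 3 comparisons, with the 95% interval from limma; filled points passed the adjusted p of 0.05. Tapbp alone passed in aged sham against young sham, none passed in aged injury against aged sham, and 6 passed in aged injury against young sham.

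Of 10 other loading and trimming genes, 1 rose with age: Tapbpl, a tapasin relative that edits class I peptides, from 8.74 ± 0.903 to 11.1 ± 0.313 FPKM (SD, n = 3 each, limma adjusted p = 0.0433). This call was lost without any 1 library other than young sham replicate 2 (adjusted p up to 0.154). It was kept in 6 of the 12 other alternatives (limma adjusted p up to 0.427). Of all features 2.53% were called higher in that comparison. Among these 10 genes 6 were below 0, with a median log2 difference of -0.03, and voom called 1 higher and 1 lower. The 43 other proteasome genes were the 3 constitutive catalytic subunits, 11 other core subunits, 21 genes of the 19S cap and 8 assembly factors and other activators. Of these limma called 0 in each of the 3 comparisons (age, injury, and aged injury against young sham), and voom called 1, 0 and 1 lower. At an unadjusted limma p under 0.05 were 12, 3 and 5, in either direction. For injury 19.8% of all features were. With age 15.9% of all features were at that threshold and higher, and the share in either direction was not computed. For aged injury against young sham no such share was computed. The median log2 difference of the 43 genes was 0.05, -0.02 and 0.02, beside 0.05, -0.01 and 0.02 over all features. Without young sham replicate 2, the age comparison called 1 catalytic subunit and 2 cap genes higher and 1 core subunit lower, and aged injury against young sham called 1 cap gene higher. The latter called 1 core subunit lower without aged injury replicate 2 and 1 cap gene lower without aged sham replicate 1.

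Class I chains, the molecules that the peptides are loaded on, were called higher in part: 5 of 9 rose in aged sham and 7 of 9 in aged injury over young sham, while limma and voom called 0 after injury within aged ganglia (0 at an unadjusted p under 0.05). Of all features limma called 2.53% higher in aged sham, 8.20% higher in aged injury over young sham and 4.11% in either direction after injury. H2-K1 was at 35.9, 41.4 and 29.4 FPKM in replicates 1 to 3 of young sham, 60.5, 88.5 and 60.8 in those of aged sham, and 55.5, 103.2 and 64.4 in those of aged injury. It rose in aged injury over young sham (log2 1.02, limma adjusted p = 0.0245), as did B2m, the light chain of class I (log2 0.70, limma adjusted p = 0.0226). The count in aged sham was 0 without young sham replicate 1 or 3 or aged sham replicate 2 or 3 and 1 without aged injury replicate 1 or 3, and that in aged injury over young sham was 3, 1, 4 and 3 without young sham replicates 1 and 3 and aged injury replicates 2 and 3. Both were 0 with the Y-linked covariate. Class I genes have near-identical copies, so values of single chains are uncertain.

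Of 18 tested genes of class I transactivation and interferon signalling, not of interferon gamma alone, limma and voom called 0 with age (4 at an unadjusted p under 0.05). After injury within aged ganglia 3 rose. Of all features limma called 4.11% in either direction there and 8.20% higher in aged injury over young sham. Nlrc5, the transactivator of class I genes, was at 0.516, 0.726 and 0.445 FPKM in replicates 1 to 3 of young sham, 0.853, 1.70 and 1.33 in those of aged sham, and 1.42, 2.99 and 1.33 in those of aged injury. It rose in aged injury over young sham (log2 1.53, limma adjusted p = 0.0207), and its age difference of 1.05 did not pass (limma adjusted p = 0.0969). The 3 that rose after injury were Irf9, Stat2 and Jak2, which carry interferon signals. Stat2 was at 17.8, 20.8 and 14.9 FPKM in replicates 1 to 3 of young sham, 21.7, 18.7 and 18.9 in those of aged sham, and 31.3, 28.0 and 30.1 in those of aged injury, with all injured libraries above the sham ones (log2 0.59, limma adjusted p = 0.0262). The count after injury was 0 without aged sham replicate 3 or aged injury replicate 1, 1 without aged sham replicate 2 or aged injury replicate 2 or 3, and 1 with the replicate number as a block. In aged injury over young sham 5 of the 18 rose, and 3 without young sham replicate 1 or 3 or aged injury replicate 2. Irf1 (log2 0.52, limma adjusted p = 0.144) did not pass with age.

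Of 11 tested genes induced by interferon gamma, 1 rose with age and 2 after injury within aged ganglia. Of all features limma called 2.53% higher with age, 4.11% in either direction after injury and 8.20% higher in aged injury over young sham. Igtp, an interferon-inducible GTPase, rose by 0.44 with age (limma adjusted p = 0.0253) and by 0.31 after injury (limma adjusted p = 0.0473). Of the 12 alternatives other than leaving out 1 library, 8 kept its age call (limma adjusted p up to 0.394) and 6 its injury call. Cd274, the checkpoint ligand PD-L1, rose after injury from 5.12 ± 0.464 to 8.79 ± 2.16 FPKM (log2 0.75, limma adjusted p = 0.0356). The count after injury was 0 without any 1 library other than young sham replicate 2, and that with age was 0 without young sham replicate 1 or 3 or aged sham replicate 2 or 3 and 2 without aged injury replicate 2. In aged injury over young sham 7 of the 11 rose, 4 without young sham replicate 3. Among them Gbp2, a guanylate-binding protein, went from 6.40 ± 0.632 to 11.98 ± 2.03 FPKM (log2 0.89) and Iigp1, an immunity-related GTPase, from 2.96 ± 0.769 to 7.12 ± 2.15 FPKM (log2 1.23). Ifng itself was listed at 0 in the young libraries and at 0.0513 to 0.242 FPKM in the aged ones, below the filter.

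Of 15 chaperones and stress genes of the endoplasmic reticulum, where loading takes place, 1 rose after injury. Of all features limma called 4.11% in either direction after injury and 8.20% higher in aged injury over young sham. Hspa5, which encodes the chaperone BiP, was at 89.4, 90.8 and 93.1 FPKM in replicates 1 to 3 of young sham, 93.8, 92.8 and 96.3 in those of aged sham, and 119.8, 125.0 and 120.7 in those of aged injury, and rose by 0.37 on the log2 scale (limma adjusted p = 0.00533). The call of Hspa5 held with each library left out and was lost without replicate 2 of both aged groups (adjusted p = 0.0713). Calr differed by 0.12 after injury (limma adjusted p = 0.373). In aged injury over young sham 5 of the 15 rose, 2 without young sham replicate 1 or 3 and 3 without any 1 aged injury library, among them Xbp1, a transcription factor of the unfolded protein response, from 22.0 ± 1.92 to 34.9 ± 2.40 FPKM (log2 0.66). With the Y-linked covariate 0 genes of these 3 lists were called in that comparison.

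Most of the 10 genes peaked in the same library of a group. Within young sham, replicate 2 was highest for 7 of them and replicate 3 lowest for 7. Within aged sham, replicate 2 was highest for 7 of the 10 genes, and within aged injury replicate 2 was highest for 9, all but Psmb10. Replicate 1 was lowest for 6 and 7 of them. Markers of T cells were also highest in replicate 2 of each group. The summed level of 11 T cell markers was 1.92 to 2.19 FPKM in young sham, where 5 of them (Cd3e, Cd3g, Cd8a, Cd5 and Trbc1) were at 0 in at least 1 library. It was 4.36, 46.5 and 9.85 FPKM in aged sham and 6.65, 57.7 and 14.9 FPKM in aged injury, with all 11 above 0.

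The summed level of 8 B and plasma cell markers was 33.5 to 40.6 FPKM in young sham, 121 to 799 FPKM in aged sham and 364 to 3052 FPKM in aged injury, highest in replicate 2 of both aged groups and in replicate 1 of young sham. That of 15 macrophage and dendritic cell markers was 63.6 to 71.6 FPKM in young sham, 107 to 166 FPKM in aged sham and 111 to 155 FPKM in aged injury. It was likewise highest in replicate 2 of both aged groups. That of 8 neutrophil markers was 142 to 232 FPKM, 329 to 595 FPKM and 180 to 308 FPKM in the same groups, and that of 10 satellite glia and Schwann cell markers was 4351 to 4702 FPKM, 3326 to 3419 FPKM and 2856 to 3190 FPKM. The sum of 5 endothelial cell markers was also highest in replicate 2 of aged sham and of aged injury (35.2 and 32.5 FPKM). That of the sensory neuron markers was lowest there (3539 and 3217 FPKM). Sums of neutrophil markers and of satellite glia and Schwann cell markers peaked in other aged libraries. The part of these cells in the results was not tested. Without replicate 2 of both aged groups, the age difference was 0.72 for Tap1, 0.89 for Psmb9, 0.66 for Psmb8 and 0.36 for Tapbp on the log2 scale, with 0 of the 10 called, and 2 of the 6 calls in aged injury over young sham held, Tap1 (1.03, limma adjusted p = 0.0279) and Psmb9 (0.88, limma adjusted p = 0.0370).

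**Figure D5:**
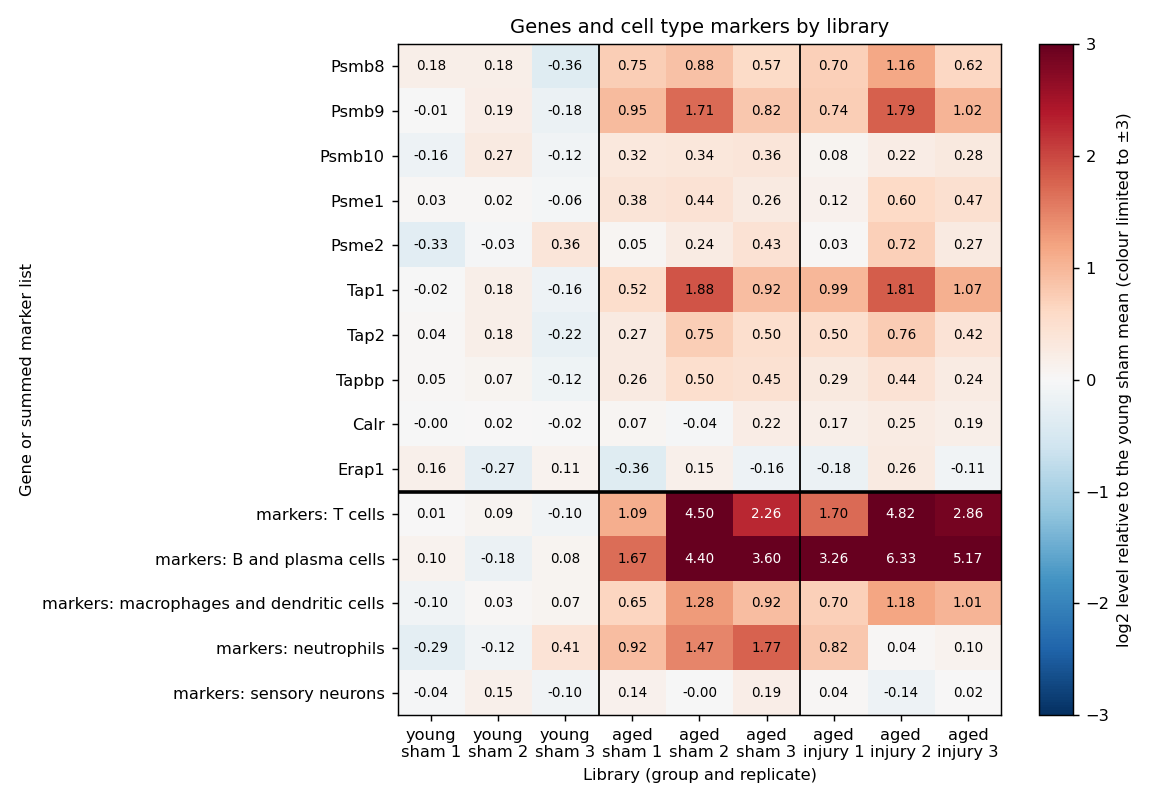
Log2 level of each of the 10 genes and of the summed marker lists in each library, relative to the mean of young sham. Replicate 2 of both aged groups holds the highest values for Tap1 (1.88 and 1.81) and Psmb9 (1.71 and 1.79) and for the T cell markers (4.50 and 4.82).

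The genes with the most similar pattern over the 9 libraries were found by the root mean square difference of centred log2 levels among 13332 features with a symbol and a mean of at least 1 FPKM. Nearest to Tap1 were Csf2rb (0.126), Nckap1l (0.158), Vav1 (0.166), Fermt3 (0.169) and Psmb9 (0.181), against a spread of Tap1 itself of 0.697. Nearest to Psmb8, with a spread of 0.426, were Klf2 (0.111), Tmem154 (0.117), Nfkb2 (0.137), H2-D1 (0.137) and Jak3 (0.149), and Tap2 ranked 16. Nearest to the mean of the 10 genes, among 13333 features, were Shisa5 (0.0764), Tap2 (0.0841), Fmnl3 (0.0905), Stxbp2 (0.0928) and Irf5 (0.0935). These likenesses are descriptions over 9 libraries that share their sources.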

How the data were processed

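RNA from 9 libraries, 3 groups of 3, was prepared with the TruSeq mRNA kit (RNA integrity number above 7.5) and read as HiSeq paired ends, per the labels. The table holds FPKM values made and deposited by the authors. Per the submitters' processing notes, tools were FastQC 0.10.1, R 3.1.1 with limma 3.22.7 and edgeR 3.8.6, HTSeq 0.6.0, and for reads SAMtools 0.1.19, TopHat2 2.0.12 and Bowtie2 2.2.3, with build mm10 and no roles. Annotation release and strand handling: not given in the sources used here. Columns were matched to samples by the age, treatment and number in their names, and 0 were left out.

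Features with a mean of at least 0.2 FPKM (17601, of which 16841, 95.7%, had a symbol in GENCODE M21) were log2-transformed after adding 0.1 FPKM and tested with limma (3.58.1, R 4.3.3) and its variance trend, all 9 libraries in 1 fit and Benjamini-Hochberg adjustment over all 17601 features. Adjusted p under 0.05 was called. Fold changes are on this scale, which understates those of low genes. Ratios of subunits were tested with two-sided exact permutation tests. The p-values measure the spread between pools of mice. Within a gene and library, values came in whole steps, within 0.001 of a whole read for 17357 of the 17601 features (98.6%), which gave relative reads, known up to a common factor per gene, for voom as an added alternative. The script was tested on simulated data.

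The 10 genes and the lists were chosen with earlier results of these data known. Named genes were the 10 in each comparison, counts and called members of each list with up to 4 of smallest p, a fixed set (Psmb5, Psmb6, Psmb7, Psme3, Nlrc5, Irf1, H2-K1, H2-D1, B2m and 1 gene not reported here), and the 5 nearest patterns; the text names a part. Promoters are from RefSeq (GRCm38.p6). Alternatives were other pseudocounts, filters, scalings and covariates, 2 groups alone, a replicate block and each library left out.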

Additional observations from a re-analysis of the deposited data

How the results depend on the processing

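With age, 1 of the 10 genes was called, and 0 with no filter, 2 groups alone, the Y-linked covariate or replicate 2 of both aged groups left out, 3 at a mean of at least 1 FPKM, 6 with array weights and 2 with voom on recovered reads (0 to 2 with 1 library left out). Aged injury against young sham called 6, and 3 at a pseudocount of 1, 1 with no filter, 2 with 2 groups alone, 0 with the Y-linked covariate and 2 without both replicates 2 (0 to 5 with 1 library left out). Aged injury against aged sham called 0 under every alternative run. The cause of these shifts was not tested. Over all features, the calls of 707 (age), 723 (injury) and 2304 (aged injury against young sham) became 239, 563 and 1741 with no filter, 31, 302 and 1866 with 2 groups alone, 5, 568 and 17 with the Y-linked covariate, 2020, 926 and 3755 with array weights, 1077, 950 and 2635 with voom, and 28, 43 and 1024 without both replicates 2; with 1 library left out they ran from 23 to 1536, 151 to 740 and 869 to 2365. The age calls were 445 higher and 262 lower, and 281 and 536 with equal medians, 388 and 509 with quantile normalization and 537 and 540 with voom. The injury calls were 432 higher and 291 lower, and 287 and 294 with equal medians.

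Same-numbered aged sham and aged injury libraries deviated together for replicates 1 and 2 (r = 0.245 and 0.270) and less for 3 (0.0625), and young sham pairs did not (-0.0667 to -0.0195), so the numbers were not taken to pair samples. With the replicate block, 1, 0 and 5 of the 10 genes and 101, 273 and 1561 of all features were called.

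The sign turned for several genes. After injury in aged ganglia the log2 value was -0.11, -0.078 and -0.092 for Tap1, Tap2 and Psmb9 with the Y-linked covariate, -0.0029 and -0.062 for Tap2 and Psmb9 with array weights, -0.0043 for Psmb9 with equal medians, and -0.0043, -0.022 and -0.090 for Psmb9, Psme1 and Psme2 without both replicates 2. In aged injury against young sham the covariate gave -0.040, -0.017, -0.019 and -0.012 for Tap1, Tap2, Tapbp and Psme2, where the main values of Tap1, Tap2 and Tapbp were 1.29, 0.56 and 0.32, and with age -0.032 for Psme2. With 1 library left out, the injury difference ran from -0.10 to 0.58 for Tap1, -0.065 to 0.17 for Tap2, -0.024 to 0.25 for Erap1, -0.072 to 0.20 for Psmb8, -0.28 to 0.30 for Psmb9, -0.061 to 0.18 for Psme1, -0.089 to 0.25 for Psme2 and -0.14 to 0.52 for the ratio of Psmb9 to Psmb6, and Erap1 in aged injury against young sham ran from -0.15 to 0.075. Depth limits Psme2 most, with 16 to 37 reads per library.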
